A study of Pistacia vera with 20 samples.

Results

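Ripening of the intact pistachio hull was followed in the cultivar Lost Hills by comparing hulls collected 133 days post anthesis with hulls collected 91 days post anthesis, across all genes. The hull is the exocarp and mesocarp, the soft tissue around the shell. Of the 20 libraries of the series, 7 belong here by their labels: 4 of intact Lost Hills hulls at 91 days and 3 of intact Lost Hills hulls at 133 days. The other 13 libraries came from intact Golden Hills hulls (4 at 91 days and 3 at 133 days), tattered Golden Hills hulls (3 at 133 days) and cracked Lost Hills hulls (3 at 133 days). All fruit of Pistacia vera came from a commercial orchard, with no other treatment or allele in the labels. The labels number the replicates but do not say whether they came from separate trees, so p-values measure only the spread between these samples.

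A fleshy fruit coat that ripens typically loses chlorophyll, changes its sugars and volatiles, and softens as enzymes cut the pectin and xyloglucan that hold its cell walls together. Ethylene and abscisic acid are known as hormones that promote ripening in many fruits, while auxin often delays it. In pistachio the hull normally separates from the shell when the nut is ripe, and a hull that stays intact protects the kernel.

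Between 16116971 and 18127935 reads were assigned to genes in each of the 7 libraries, with 22642 to 23344 genes detected per library. Most markers of the neighbouring shell and seed were low or had no read. The summed level of 29 genes that mark the lignifying shell and xylem was 10.9 to 19.1 FPKM (a fragment count corrected for the length of the gene and the depth of the library) at 91 days and 2.40 to 3.48 FPKM at 133 days. The 26 seed markers summed to 168 to 233 FPKM at 91 days and to 151 to 203 FPKM at 133 days. Most of that came from one 12S seed storage globulin 2 gene (ptg000016l_568), at 127 ± 11.5 FPKM (SD, n = 4) and 140 ± 25.8 FPKM (SD, n = 3), while 3 seed markers had no read in these libraries.

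Replicate 2 of the 91 day group stood apart. A set of 14 genes had at least 5 FPKM in every Golden Hills library of 133 days and in the median of those of 91 days. These genes had at most 3 reads in every Lost Hills library of 133 days. In replicate 2 all 14 exceeded 3 reads, and their median level was 36.9% of that in 91 day Golden Hills hulls (range 26.3% to 49.4%). Among the other 3 libraries of 91 days 4 of the 14 exceeded 3 reads in replicate 1 and 0 in replicates 3 and 4, with medians of at most 1.18%. For 12 genes chosen by the same rule with the cultivars exchanged, replicate 2 stood at a median of 78.3% of the level in 91 day Lost Hills hulls, and the other 3 stood at 97.4% to 116.5%. Whether this library holds Golden Hills material was not tested. Without replicate 2 the number of rises went from 15 to 10 for the sugar genes described below, from 12 to 9 for phenylpropanoid, from 14 to 11 for auxin, from 6 to 4 for jasmonate and from 6 to 4 for MADS-box genes. Falls of cell division genes went from 38 to 33.

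The level of 6249 of 19716 tested genes differed between the ages, which is 31.7% of all genes tested (limma on log2(FPKM + 1), Benjamini-Hochberg adjusted p under 0.05). At 133 days 3159 genes (16.0%) were higher and 3090 (15.7%) were lower. A gene is called below when it passed this test. Changes are given in log2 units of FPKM + 1, 133 minus 91 days, and for low genes they are smaller than the change in FPKM itself. For 40.2% of the genes tested, the 4 younger and 3 older libraries did not overlap. Among the called genes 918 rose and 1034 fell by at least 1 on that scale, and 28 rose and 16 fell by at least 4. Without replicate 2 of the 91 day group 5200 genes were called. The plot of level against change shows both directions along the whole range of expression.

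**Figure D1:**
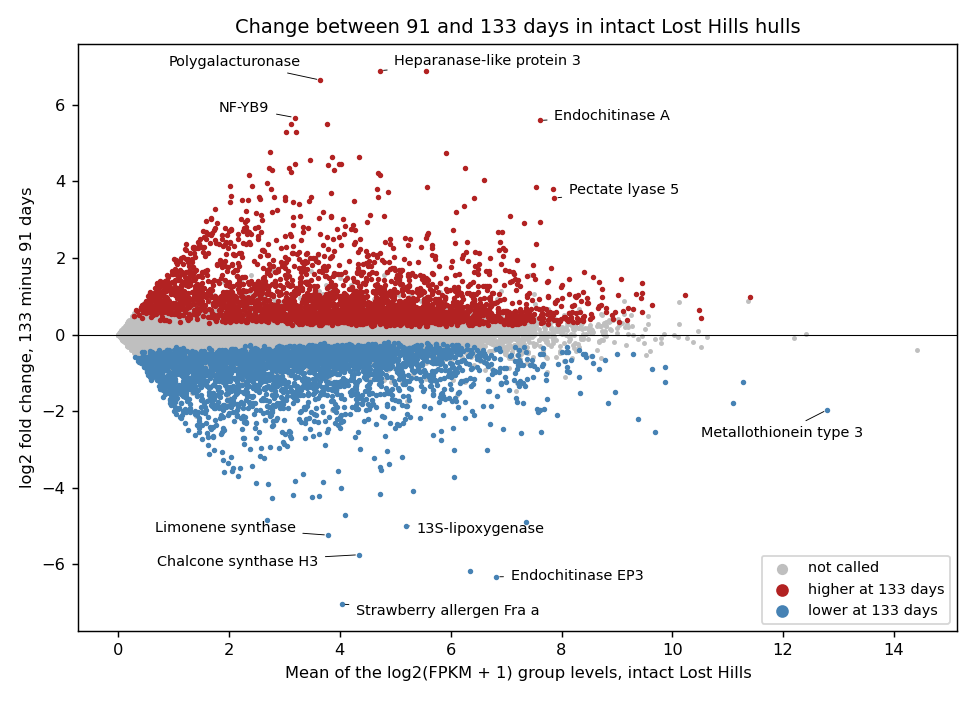
Each point is one of the 19716 tested genes, with the mean of its 2 group levels in log2(FPKM + 1) on the x axis and its log2 fold change from 91 to 133 days in intact Lost Hills hulls on the y axis. Red and blue points are the 3159 genes called higher and the 3090 called lower at 133 days, and the labelled genes are described in the text.

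The 133 day libraries were not equally far along this change. For each library the called genes with a change of at least 1 were taken from a fit without it, and its position between the ages was expressed as a percent of the change in the others. Replicate 1 of the 133 day group lay at a median of 66.7% for rising genes and 80.1% for falling genes, while replicate 2 lay at 109% and 113% and replicate 3 at 94.6% and 89.3%. The 4 libraries of 91 days lay between -4.96% and 14.0%. Replicate 1 is also the lowest of its group for several rising genes described below.

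**Figure D2:**
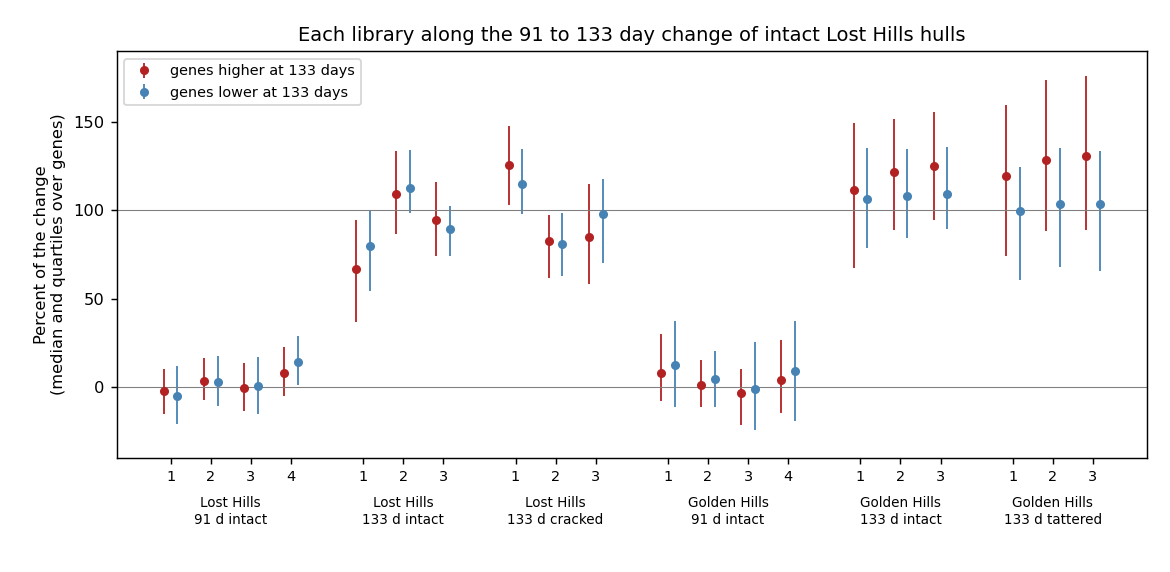
Points are the median percent of the 91 to 133 day change of intact Lost Hills hulls reached by each library, and bars run from the lower to the upper quartile over genes (red, genes higher at 133 days; blue, genes lower). Replicate numbers stand under the axis, and replicate 1 of the intact 133 day Lost Hills group lies below the other replicates of its group in both directions.

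The gene names below are those of the protein match in the deposited table, and many come from other plants. The largest changes were a rise of a heparanase-like gene and a fall of a pathogenesis-related allergen gene. Heparanase-like protein 3 (ptg000001l_771, contig ptg000001l from 11882071 to 11885149) measured 0.844, 1.61, 0.981 and 2.29 FPKM at 91 days and 214, 369 and 274 FPKM at 133 days. Its log2 fold change was 6.89 (SE 0.33, adjusted p = 3.4e-10), and the lowest 133 day library was far above the highest 91 day library. The gene matching Major strawberry allergen Fra a 1.07 (ptg000022l_2382, contig ptg000022l from 28557144 to 28558139), a protein of the pathogenesis-related family of fruit, was at 142, 206, 289 and 117 FPKM and then at 0.0601, 0.191 and 0.985 FPKM. It fell by 7.04 on the log2 scale (SE 0.33, adjusted p = 3.4e-10).

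Single genes for enzymes that cut pectin had large rises. Polygalacturonase, which cuts the pectin backbone, was represented by ptg000022l_142 (contig ptg000022l from 1809122 to 1810595), with no read in the 4 libraries at 91 days and 19.0, 263 and 186 FPKM at 133 days. Against a floor of 3 reads in a library it was at least 1114-fold higher at 133 days (6.64 log2 units, SE 0.61, adjusted p = 8.1e-07). Replicate 1 held the smallest value of the 133 day group by a wide margin. Probable pectate lyase 5 (ptg000024l_159), which splits pectin by elimination, was at 53.9, 61.2, 59.97 and 38.9 FPKM and then at 129, 1822 and 1066 FPKM (3.56 log2 units, SE 0.59, adjusted p = 0.00022). The groups do not overlap, though replicate 1 of 133 days lay near the 91 day level.

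A group of 3 genes for inhibitors of pectin enzymes also rose. Pectinesterase inhibitor 4 (ptg000004l_861), which blocks removal of methyl groups from pectin in other plants, went from 57.8 ± 7.13 FPKM (SD, n = 4) to 896 ± 423 FPKM (SD, n = 3), with a log2 fold change of 3.80 (SE 0.36, adjusted p = 1.2e-06). Pectinesterase inhibitor 10 (ptg000004l_863), a neighbour on the same contig, rose by 3.55 (adjusted p = 2.6e-06), and a Polygalacturonase inhibitor 1 gene (ptg000019l_1249) by 2.20 (adjusted p = 8.2e-05). A Pectinesterase/pectinesterase inhibitor gene (ptg000017l_1250) moved the other way, from 66.9 ± 16.4 to 10.7 ± 6.04 FPKM (fell by 2.64, SE 0.32, adjusted p = 1.3e-05). The 3 inhibitor genes that rose were chosen after seeing their values.

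Pectin genes numbered 270, of which 91 were tested, and 27 rose, 17 fell and 47 did not pass, which is 48.4% called against 31.7% of all genes. The median log2 fold change was 0.12, against 0.00 over all genes tested. Their summed level went from 1627 to 1807 FPKM at 91 days to 2465 to 5637 FPKM at 133 days, with replicate 1 at the low end. The list and its sum hold inhibitor genes as well as enzymes. Group means went from 57.8 to 896 FPKM for pectinesterase inhibitor 4 and from 53.5 to 1006 FPKM for probable pectate lyase 5. Without replicate 2 of the 91 day group 21 rose and 16 fell.

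Xyloglucan enzymes and expansins moved in both directions. Xyloglucan endotransglucosylase/hydrolase protein 9 (ptg000019l_1982), which cuts and rejoins xyloglucan, stood at 277, 209, 220 and 248 FPKM at 91 days and at 22.0, 14.7 and 15.8 FPKM at 133 days. It fell by 3.71 (SE 0.28, adjusted p = 9.0e-08), and the groups lay far apart. The gene named probable xyloglucan endotransglucosylase/hydrolase protein 30 (ptg000019l_3389) rose from 77.5 ± 6.06 to 248 ± 73.8 FPKM (1.62 log2 units, SE 0.23, adjusted p = 4.8e-05). Expansin-A13 (ptg000003l_1185), of the family that loosens walls at acid pH, fell by 1.01 (adjusted p = 0.00011), while Expansin-like A1 (ptg000020l_1500) rose by 2.16 (adjusted p = 0.00072). Both expansins were chosen after seeing their values. Of 49 tested genes of wall loosening 11 rose, 13 fell and 25 did not pass, which is 49.0% called against 31.7% of all genes.

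Genes of wall synthesis and lignification were called in both directions. A Cellulose synthase-like protein D2 gene (ptg000019l_3388) rose from 3.28 ± 0.904 to 34.8 ± 9.96 FPKM (3.05 log2 units, SE 0.33, adjusted p = 4.6e-06), and Callose synthase 7 (ptg000019l_1301), of the family that makes callose, fell by 1.59 (SE 0.19, adjusted p = 1.3e-05). Of 46 tested genes of cellulose and callose synthesis 10 rose and 16 fell, which is 56.5% called against 31.7% of all genes. The count of falls was 9 without replicate 2 and 10 without replicate 3 of the 133 day group. Laccase-15 (ptg000001l_3654), an oxidase of phenolic compounds, had no read at 91 days and measured 5.68, 114 and 78.2 FPKM at 133 days, at least 681-fold higher against a floor of 3 reads in a library (5.30 log2 units, SE 0.71, adjusted p = 3.2e-05). Of 81 tested phenylpropanoid and lignin genes 12 rose and 9 fell, which is 25.9% called, below the 31.7% of all genes, and 7 rose without replicate 3 of the 133 day group.

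Most tested shell and xylem markers fell, and phloem markers were mixed. Laccase-4 (ptg000027l_340), tied to lignified xylem in Arabidopsis, went from 2.38 ± 0.733 to 0.187 ± 0.0864 FPKM (fell by 1.49, SE 0.18, adjusted p = 9.7e-06). Of the 29 shell and xylem markers 8 were tested, of which 6 fell, and 9 had no read. That is 75% called against 31.7% of all genes. The tested markers averaged at most 0.660 FPKM at 133 days, below the 1 FPKM needed for testing. In these libraries they could pass mainly through the 91 day group, so mostly falls could be called and their share is no measure of the list. The phloem gene named Protein SIEVE ELEMENT OCCLUSION B (ptg000024l_919) fell from 9.63 ± 1.44 to 0.265 ± 0.176 FPKM (fell by 3.07, SE 0.21, adjusted p = 4.6e-08), and the summed level of 26 phloem markers went from 645 to 827 FPKM to 542 to 648 FPKM, where the groups overlap slightly. Of 14 tested phloem markers 5 fell, 2 rose and 7 did not pass, which is 50% called against 31.7% of all genes. In whole hull samples fewer cells of a type and less RNA per cell cannot be told apart, and the part these markers play in the wall changes was not tested. Laccase-4 and SIEVE ELEMENT OCCLUSION B were chosen after seeing their values.

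**Figure D3:**
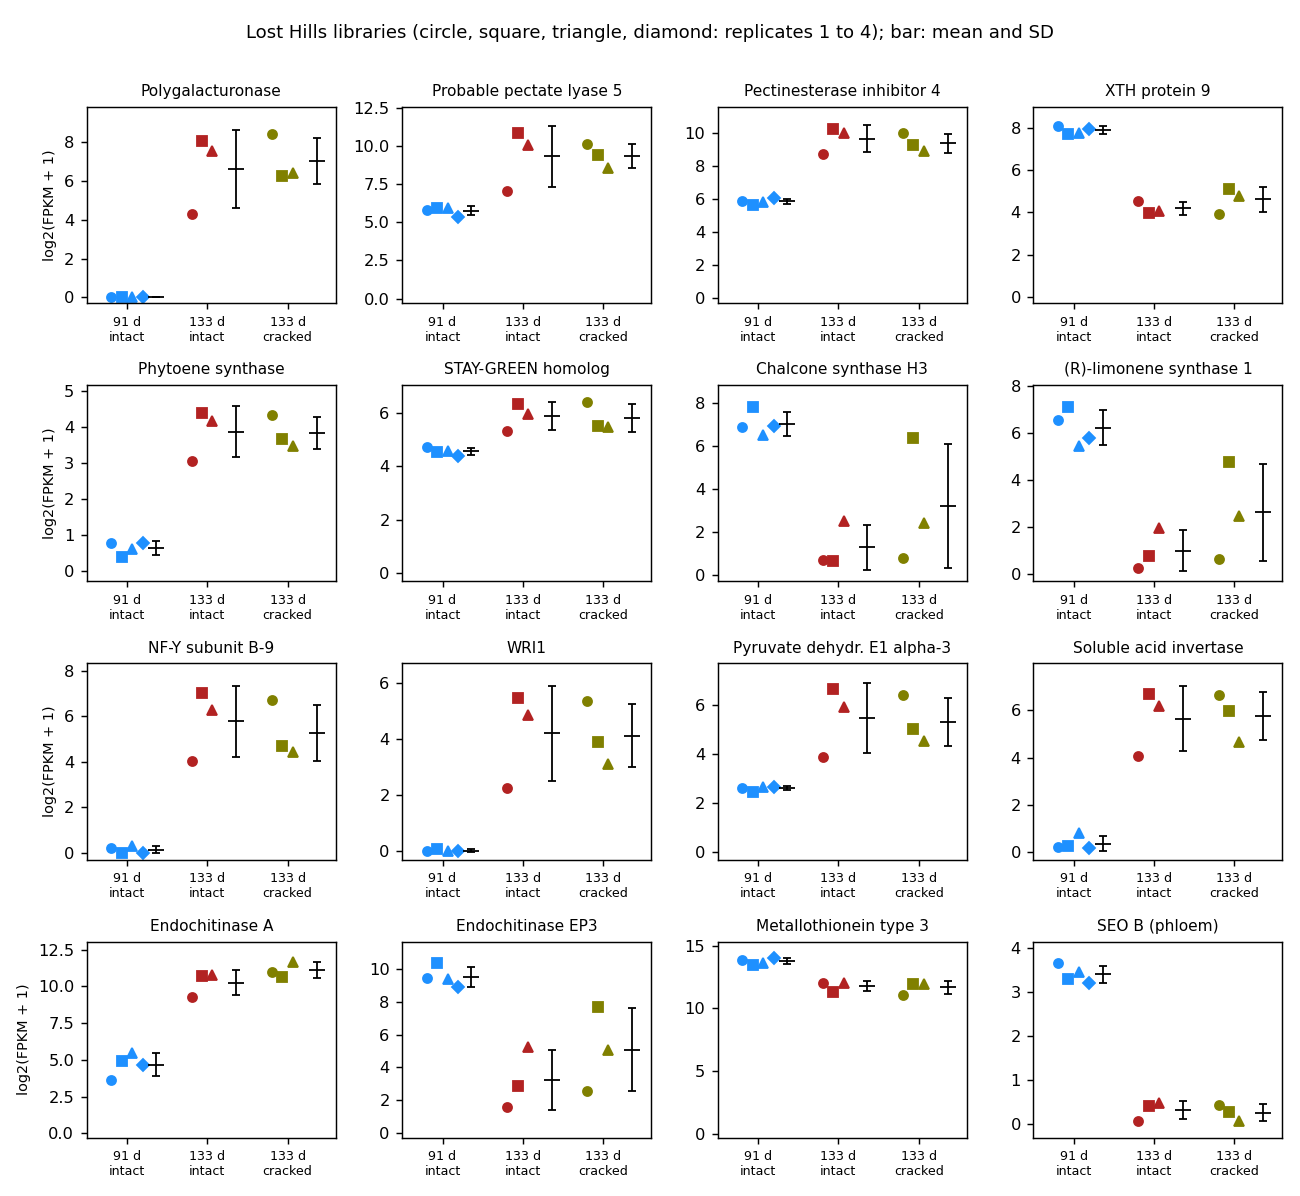
Levels of 16 genes in log2(FPKM + 1) in each Lost Hills library at 91 days intact, 133 days intact and 133 days cracked, with the mean and SD of each group beside the points (n = 4, 3 and 3). The polygalacturonase gene has no read at 91 days and its 3 intact 133 day libraries measured 19.0, 263 and 186 FPKM.

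Pigment genes moved in opposite ways by step. Chlorophyllase-1 (ptg000019l_3143), which removes the phytol tail of chlorophyll, was at 98.3, 102, 105 and 86.5 FPKM and then at 10.9, 4.55 and 18.2 FPKM, and fell by 3.19 (SE 0.41, adjusted p = 2.3e-05). A STAY-GREEN homolog (ptg000010l_1158), which takes magnesium out of chlorophyll as it is broken down, rose from 22.6 ± 2.19 to 59.5 ± 20.6 FPKM (1.304 log2 units, SE 0.28, adjusted p = 0.0017). Pheophytinase (ptg000005l_93), the enzyme that acts next in leaf senescence, rose by 1.27 (SE 0.29, adjusted p = 0.0027) and was chosen after its values were seen. Of 14 tested genes of chlorophyll breakdown 4 rose and 3 fell, which is 50% called against 31.7% of all genes. Without replicate 2 of the 133 day group 1 fell. Of 19 tested genes of chlorophyll synthesis 5 rose and 2 fell, which is 36.8% called, and 2 rose without that library.

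Photosystem and light-harvesting genes had no common direction. Of 53 tested members 6 rose and 8 fell, which is 26.4% called, below the 31.7% of all genes, and the median was -0.07. The rise count is unstable: 1 rose without replicate 2, and 2 without replicate 3, of the 133 day group, and 1 without replicate 1 or without replicate 3 of the 91 day group. Photosystem II 10 kDa polypeptide (ptg000009l_1764) went from 340 ± 33.8 to 211 ± 27.3 FPKM (fell by 0.69, SE 0.17, adjusted p = 0.0061).

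A gene for the first committed step of carotenoid synthesis rose. Phytoene synthase (ptg000008l_386), which joins the first carotenoid backbone, was at 0.714, 0.293, 0.504 and 0.713 FPKM and then at 7.29, 19.7 and 16.7 FPKM (3.23 log2 units, SE 0.24, adjusted p = 9.5e-08). Beta-carotene hydroxylase 2 (ptg000004l_577), further down that path, rose from 84.9 ± 19.9 to 220 ± 24.6 FPKM (1.38 log2 units, SE 0.30, adjusted p = 0.0018). The abscisic acid 8'-hydroxylase CYP707A2 (ptg000003l_30), which inactivates abscisic acid, fell by 2.19 (SE 0.43, adjusted p = 0.00088). Of 60 tested carotenoid and abscisic acid genes 18 rose, 10 fell and 32 did not pass, which is 46.7% called against 31.7% of all genes. Their median log2 fold change was 0.006. Their summed level was 1170 to 1267 FPKM at 91 days and 1265 to 1379 FPKM at 133 days. Without replicate 2 of the 133 day group 11 rose and 6 fell.

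A gene for chalcone synthase, the entry enzyme of flavonoid synthesis, fell. Chalcone synthase H3 (ptg000022l_1500) was at 118, 223, 89.7 and 123 FPKM and then at 0.642, 0.573 and 4.67 FPKM, and fell by 5.75 (SE 0.91, adjusted p = 0.00015). Chalcone--flavanone isomerase (ptg000009l_562) fell by 0.95 (SE 0.24, adjusted p = 0.0062), and an anthocyanidin reductase gene (ptg000017l_1315) rose by 1.77 (SE 0.27, adjusted p = 0.00011). Of 52 tested flavonoid genes 5 rose, 11 fell and 36 did not pass, which is 30.8% called, near the 31.7% of all genes. Their median log2 fold change was 0.007. The rises numbered 3, 3 and 2 without replicates 1, 2 and 3 of the 133 day group and 3 without replicate 3 of the 91 day group.

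Terpene synthesis genes fell more often than those of any other list in the plot of gene lists. Of 58 tested members 31 fell and 4 rose, which is 60.3% called against 31.7% of all genes tested, and the median log2 fold change was -0.77. The summed level went from 1967 to 2172 FPKM at 91 days to 917 to 1091 FPKM at 133 days. An (R)-limonene synthase 1 gene (ptg000017l_785), a match to an enzyme that makes the citrus volatile limonene, was at 95.0, 137, 42.9 and 54.9 FPKM and then at 0.194, 0.722 and 2.91 FPKM, and fell by 5.24 (SE 0.69, adjusted p = 2.8e-05). Terpene synthase 10 (ptg000017l_802) rose from 6.78 ± 2.19 to 21.8 ± 8.24 FPKM (1.53 log2 units, SE 0.36, adjusted p = 0.0039). Some of these genes lie close together on contig ptg000017l and could share reads.

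Among the sugar genes an invertase gene rose. The soluble acid invertase named Beta-fructofuranosidase, soluble isoenzyme I (ptg000004l_880), which splits sucrose in the vacuole, was at 0.157, 0.207, 0.773 and 0.147 FPKM and then at 15.8, 102 and 72.6 FPKM (5.28 log2 units, SE 0.48, adjusted p = 7.1e-07). Sucrose transport protein SUC2 (ptg000001l_3731), which loads sucrose into phloem in Arabidopsis, fell by 0.66 (SE 0.21, adjusted p = 0.026). SUC2 kept this call in 14 of 19 other settings of the processing, not counting a fold threshold. Of 104 tested sugar genes 15 rose, 24 fell and 65 did not pass, which is 37.5% called against 31.7% of all genes. Their median log2 fold change was -0.02. Their summed level went from 3605 to 3968 FPKM at 91 days to 3063 to 3422 FPKM at 133 days. Without replicate 2 of the 133 day group 9 rose.

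Among lipid transfer and surface lipid genes falls outnumbered rises, though most tested members did not pass. One Non-specific lipid-transfer protein gene (ptg000024l_307) was at 512, 622, 589 and 565 FPKM and then at 23.0, 1.31 and 7.76 FPKM, and fell by 6.18 (SE 0.64, adjusted p = 2.7e-06). The summed level of 49 lipid transfer protein genes went from 4786 to 6608 FPKM to 2048 to 3578 FPKM, and of 33 tested members 4 rose, 11 fell and 18 did not pass. Of 95 tested cutin, suberin and wax genes 16 rose, 27 fell and 52 did not pass, with a median of -0.06. Their summed level of 1220 to 1328 FPKM at 133 days lay within the 1151 to 1580 FPKM of 91 days. The share called was 45.5% in the lipid transfer list and 45.3% in the cutin, suberin and wax list, against 31.7% of all genes. GDSL esterase/lipase 1 (ptg000021l_376), of a family of hydrolases, rose from 2.31 ± 0.76 to 123 ± 95.0 FPKM (4.64 log2 units, SE 0.71, adjusted p = 0.00012), and a neighbour with the same name (ptg000021l_381) fell by 2.09 (SE 0.25, adjusted p = 9.3e-06). The 2 copies are alike in name and whether reads were split between them is not stated.

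Hormone genes showed no single direction. Ethylene genes numbered 89 tested, with 13 higher and 18 lower, which is 34.8% called and near the 31.7% of all genes, and 8 rose without replicate 3 of the 133 day group. This list takes in every gene named ethylene-responsive transcription factor, and whether those members respond to ethylene in the hull was not tested. Ethylene-responsive transcription factor WRI1 (ptg000009l_982), known in Arabidopsis to switch on fatty acid synthesis, had at most 0.0564 FPKM at 91 days and 3.77, 43.2 and 27.7 FPKM at 133 days (4.17 log2 units, SE 0.54, adjusted p = 2.3e-05). Ethylene receptor 2 (ptg000022l_2191), which senses the hormone, fell from 85.7 ± 12.1 to 44.4 ± 15.6 FPKM (fell by 0.99, SE 0.21, adjusted p = 0.0020) and was chosen after its values were seen.

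Auxin response genes leaned lower. Of 66 tested 14 rose and 21 fell, which is 53.0% called against 31.7% of all genes, and the median log2 fold change was -0.26. Auxin-induced protein AUX28 (ptg000007l_903) fell from 162 ± 11.4 to 34.7 ± 3.48 FPKM (fell by 2.19, SE 0.32, adjusted p = 6.8e-05), while Auxin-responsive protein IAA17 (ptg000001l_1432) rose from 11.7 ± 3.18 to 68.9 ± 2.96 FPKM (2.49 log2 units, SE 0.31, adjusted p = 1.6e-05). Both belong to the family of repressors that auxin degrades.

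Gibberellin and jasmonate genes were fewer. Gibberellin-regulated protein 1 (ptg000024l_682), a small cysteine-rich protein, went from 1.01 ± 1.01 to 91.9 ± 48.2 FPKM (5.51 log2 units, SE 0.50, adjusted p = 7.2e-07). Of 23 tested gibberellin genes 7 rose and 1 fell, which is 34.8% called, near the 31.7% of all genes. The falls numbered 2, 0 and 2 without replicate 1 or 2 of the 133 day group or replicate 4 of the 91 day group. Linoleate 13S-lipoxygenase 2-1 (ptg000008l_497), an enzyme at the start of jasmonate synthesis, was at 175, 129, 221 and 209 FPKM and then at 6.91, 0.939 and 10.9 FPKM, and fell by 4.99 (SE 0.63, adjusted p = 1.7e-05). A neighbour with the same name (ptg000008l_495) rose by 1.67 (SE 0.47, adjusted p = 0.012). Of 39 tested jasmonate genes 6 rose and 9 fell, which is 38.5% called, and 2 and 3 rose without replicate 2 and replicate 3 of the 133 day group.

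Regulators included some of the largest rises. Nuclear transcription factor Y subunit B-9 (ptg000009l_2906), known in Arabidopsis as an embryo regulator, was at 0.156, 0, 0.226 and 0 FPKM and then at 15.4, 130 and 77.5 FPKM (5.66 log2 units, SE 0.53, adjusted p = 9.9e-07). Beside it, 2 of 13 tested seed markers rose and 2 fell, which is 30.8% called, near the 31.7% of all genes. The rises numbered 0 without replicate 2 of the 133 day group and 1 without any one of its replicates 1 and 3 or of replicates 1, 3 and 4 of the 91 day group. The Oleosin gene ptg000002l_681, an oil body protein, fell from 46.9 ± 18.5 to 2.53 ± 2.02 FPKM (fell by 3.85, SE 0.39, adjusted p = 2.4e-06). The part of seed tissue in the level of this regulator was not tested, and the oleosin gene was chosen after seeing its values. Transcription factor MYB78 (ptg000019l_758) rose from 1.21 ± 0.366 to 53.7 ± 22.1 FPKM (4.55 log2 units, SE 0.33, adjusted p = 8.6e-08), and Transcription factor MYB82 (ptg000001l_1561) fell by 3.56 (SE 0.25, adjusted p = 7.2e-08). NAC genes, many of which act in senescence in other plants, leaned higher, with 16 of 48 tested higher and 4 lower and a median of 0.24. That is 41.7% called against 31.7% of all genes. The NAC domain-containing protein 21/22 gene (ptg000009l_1762) rose from 1.38 ± 0.415 to 21.5 ± 2.41 FPKM (3.25 log2 units, SE 0.26, adjusted p = 1.8e-07). Of 59 tested MYB genes 15 rose and 9 fell (40.7% called), and of 51 WRKY genes 9 rose and 12 fell (41.2% called). Of 25 MADS-box genes 6 rose and 6 fell (48% called), with AGL11 (ptg000001l_4021) going from 0.232 ± 0.43 to 8.49 ± 4.08 FPKM.

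Defence and stress genes held both extremes. Endochitinase A (ptg000022l_402 joined with ptg000022l_403), which cuts the chitin of fungal walls, was at 11.2, 29.3, 44.1 and 24.2 FPKM and then at 622, 1668 and 1761 FPKM (5.59 log2 units, SE 0.42, adjusted p = 9.5e-08). Endochitinase EP3 (ptg000022l_420) on the same contig fell from 802 ± 366 to 14.9 ± 18.8 FPKM (fell by 6.32, SE 0.89, adjusted p = 5.3e-05). Of 116 tested defence genes 17 rose and 26 fell, which is 37.1% called against 31.7% of all genes. Of 81 heat shock genes 7 rose and 24 fell (38.3% called), and 15 fell without replicate 2 of the 133 day group. Of 100 tested senescence proteases 21 rose and 23 fell (44% called). Of 69 tested detoxification genes 9 rose and 15 fell (34.8% called, near all genes), and 5 rose without replicate 3 of the 133 day group.

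A gene related to drying tolerance was among the largest rises. Desiccation-related protein PCC13-62 (ptg000019l_938), named after a resurrection plant protein, was at 0.136, 0.779, 0.131 and 0.192 FPKM at 91 days and at 58.0, 58.8 and 54.5 FPKM at 133 days. Its 3 older libraries lay close together, and the change was 5.50 log2 units (SE 0.42, adjusted p = 9.6e-08). A 22.0 kDa class IV heat shock protein gene (ptg000001l_4585) rose from 0.857 ± 0.523 to 43.5 ± 27.1 FPKM (4.44 log2 units, SE 0.35, adjusted p = 1.3e-07), against the direction of most called heat shock genes. Heat shock cognate protein 80 (ptg000009l_2995), a chaperone, fell from 317 ± 46.8 to 229 ± 20.2 FPKM (fell by 0.46, SE 0.15, adjusted p = 0.022).

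Of the 100 tested senescence proteases 56 did not pass, and those that did were split between the directions. Cysteine protease RD19A (ptg000020l_2533), a vacuolar papain-type enzyme, was at 413, 466, 413 and 457 FPKM and then at 606, 1192 and 1071 FPKM (1.07 log2 units, SE 0.21, adjusted p = 0.00098). All older libraries were above all younger ones. Subtilisin-like protease SBT3 (ptg000001l_2724), a secreted serine protease, fell from 18.1 ± 5.50 to 0.984 ± 0.311 FPKM (fell by 3.22, SE 0.25, adjusted p = 9.6e-08).

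Among regulators that fell, Probable WRKY transcription factor 70 (ptg000009l_29), which acts in pathogen defence in Arabidopsis, was at 6.05, 36.7, 8.98 and 10.7 FPKM and then at 3.66, 0.82 and 0.883 FPKM (fell by 2.40, SE 0.63, adjusted p = 0.0077). Replicate 2 held the highest value of the 91 day group. One gene named Probable WRKY transcription factor 75 (ptg000019l_1119) rose from 0.92 ± 0.865 to 9.38 ± 2.26 FPKM (2.50 log2 units, SE 0.42, adjusted p = 0.00025), and another of that name (ptg000024l_12) fell from 180 ± 29.4 to 111 ± 19.3 FPKM (fell by 0.69, SE 0.17, adjusted p = 0.0050). Agamous-like MADS-box protein MADS2 (ptg000024l_306) fell from 227 ± 19.6 to 130 ± 16.5 FPKM (fell by 0.81, SE 0.13, adjusted p = 0.00013).

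Of the called genes 1307 have no protein name. The unnamed gene ptg000001l_2648 was at 2.23, 1.17, 0 and 12.4 FPKM at 91 days and at 138, 665 and 519 FPKM at 133 days (6.87 log2 units, SE 0.88, adjusted p = 2.0e-05). In the opposite direction, ptg000022l_2222 was at 604, 909, 1009.9 and 1043 FPKM and then at 33.0, 19.0 and 35.6 FPKM (fell by 4.90, SE 0.38, adjusted p = 1.2e-07). Neither pair of groups overlaps.

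Metallothioneins, small metal-binding proteins, were among the 5 most abundant genes at 91 days. Metallothionein-like protein type 3 (ptg000009l_2186) went from 13947 ± 2348 to 3619 ± 917 FPKM (fell by 1.97, SE 0.29, adjusted p = 7.9e-05). Metallothionein-like protein type 2 (ptg000016l_632 joined with ptg000016l_633) was at 25010 ± 2951 and 19359 ± 4933 FPKM, and did not pass the test (adjusted p = 0.38). Aquaporin TIP4-1 (ptg000001l_1692), a water channel of the vacuole membrane, fell from 84.5 ± 12.8 to 7.08 ± 2.93 FPKM (fell by 3.46, SE 0.35, adjusted p = 2.3e-06). Of 23 tested aquaporins 4 rose and 3 fell, which is 30.4% called, near the 31.7% of all genes.

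Among cell division and histone genes falls outnumbered rises, and among cytosolic ribosomal protein genes rises outnumbered falls. Of 112 tested cell division and histone genes 38 fell, 11 rose and 63 did not pass, with a median log2 fold change of -0.32. Their summed level was nevertheless higher at 133 days, at 4676 to 4895 FPKM against 3930 to 4217 FPKM, with no overlap. Histone H1 (ptg000019l_3074), which binds the DNA between nucleosomes, rose from 164 ± 23.8 to 396.5 ± 16.1 FPKM (1.28 log2 units, SE 0.20, adjusted p = 0.00013), and Histone H3.3 (ptg000001l_2423), a core histone, by 0.59 (adjusted p = 0.0051). Putative cyclin-D6-1 (ptg000019l_2010) fell from 5.74 ± 2.00 to 0.343 ± 0.339 FPKM (fell by 2.31, SE 0.28, adjusted p = 1.2e-05). Of 160 tested cytosolic ribosomal protein genes 63 rose, 3 fell and 94 did not pass, with a median of 0.29. The share called was 43.75% in the cell division list and 41.25% in the ribosomal list, against 31.7% of all genes. The rise of ribosomal genes is small per gene, as in 60S ribosomal protein L26-1 (ptg000013l_1369) from 503 ± 93.3 to 786 ± 44.0 FPKM (0.66 log2 units, SE 0.13, adjusted p = 0.0010). The count of ribosomal rises was 37 without replicate 3 of the 133 day group and 47 without replicate 2 of the 91 day group.

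**Figure D4:**
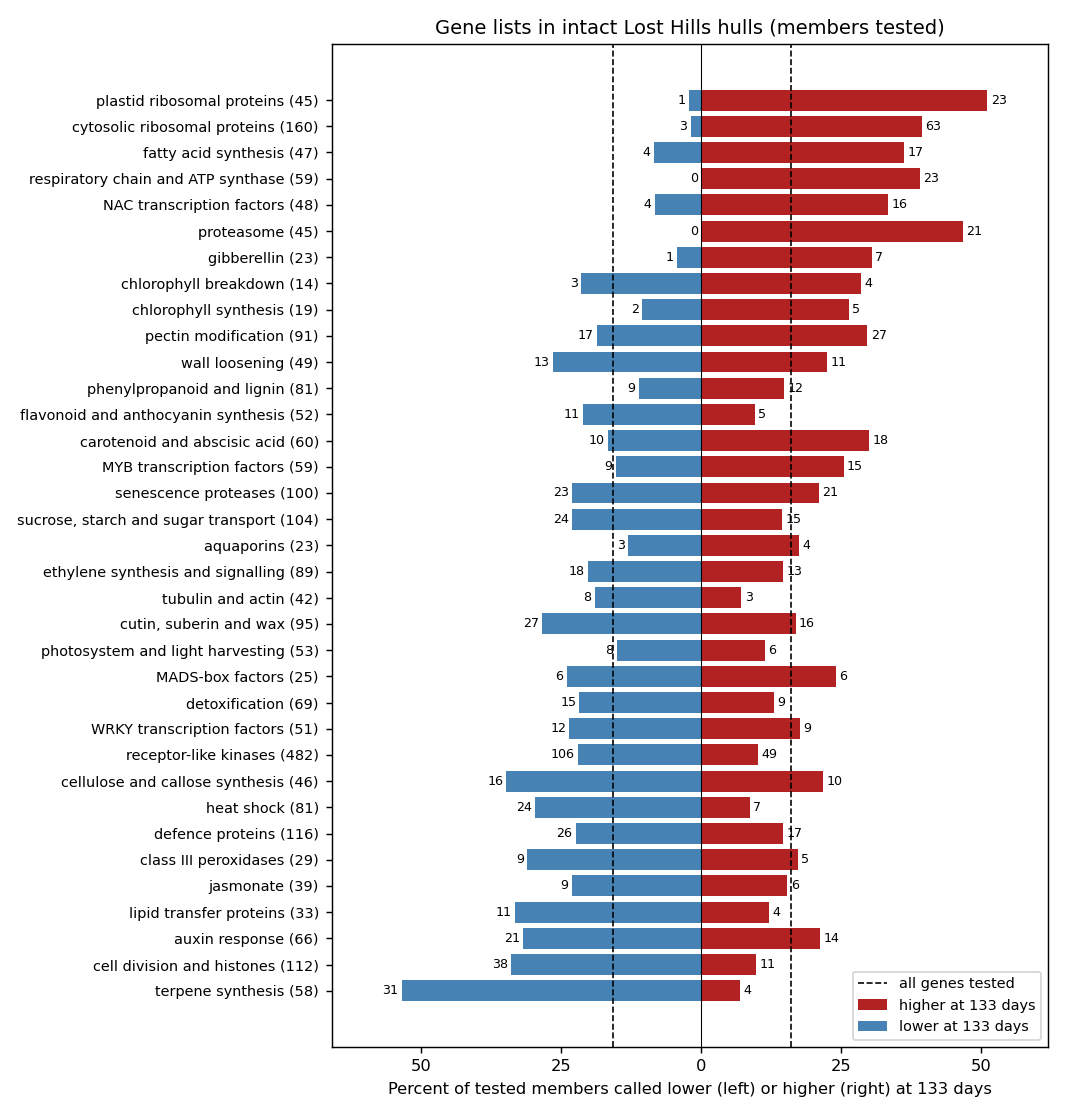
For each gene list the bars give the percent of tested members called higher (red, right) or lower (blue, left) at 133 days in intact Lost Hills hulls, with the number of genes at the bar ends and the members tested in brackets. The dashed lines mark the shares of all genes tested, 16.0% higher and 15.7% lower, and terpene synthesis reaches furthest to the left with 31 genes lower.

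The same change was measured in intact Golden Hills hulls, with other libraries at both ages. There 8932 genes (45.3%) were called, and 4679 genes were called the same way in both cultivars, 74.9% of the Lost Hills calls and 52.4% of the Golden Hills calls. The difference of the age change between the cultivars, tested as an interaction, was called for 649 genes (3.29%), with 244 positive (1.24%) and 405 negative (2.05%) for Lost Hills minus Golden Hills. Scaling to TPM gave 445 positive and 293 negative, and scaling to library totals 432 and 298, so the balance of signs turned. The median difference over all genes was 0.115 and 0.109 log2 units under those scalings, against 0.0023 here. Of the 649 genes 332 were called in Golden Hills only, 70 in Lost Hills only, 70 in opposite directions and 177 in the same direction, of which 171 changed more in Golden Hills. The count was 547 without replicate 2 of the 91 day Lost Hills group, the library that stood apart above, 375 without replicate 1 of the 133 day Lost Hills group, 414 without replicate 3 of its 91 day group and 392 without replicate 2 of the 133 day Golden Hills group.

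The flowering regulator match Protein HEADING DATE 3A (ptg000007l_1553), which promotes flowering in rice, was at 6.52, 3.18, 1.55 and 9.96 FPKM in 91 day Lost Hills hulls and at 56.3, 187 and 86.2 FPKM at 133 days. In Golden Hills it was at 0.667 to 4.31 FPKM at 133 days, and the difference of the age changes was 4.15 (SE 0.77, adjusted p = 0.0068). Peroxidase 17 (ptg000013l_1099) rose in Lost Hills from 41.5 ± 7.12 to 94.4 ± 16.5 FPKM (1.17 log2 units, SE 0.35, adjusted p = 0.017) and fell in Golden Hills by 2.88, a difference of 4.04 (adjusted p = 0.00020). At the other end a GDSL lipase gene (ptg000012l_365) had at most 2.56 FPKM in Lost Hills at 133 days and 101 to 122 FPKM in Golden Hills (difference -6.02, SE 0.42, adjusted p = 3.5e-07).

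Of the ethylene perception genes, Ethylene receptor 2 and an EIN3-binding F-box gene moved in opposite directions in the cultivars. Ethylene receptor 2 fell in Lost Hills and rose by 1.38 in Golden Hills, a difference of -2.37 (SE 0.30, adjusted p = 0.00028). EIN3-binding F-box protein 2 (ptg000001l_1535), which marks an ethylene-response regulator for degradation, fell by 1.06 in Lost Hills (SE 0.32, adjusted p = 0.016) and rose by 1.36 in Golden Hills (difference -2.42, adjusted p = 0.0065). A further Ethylene receptor gene (ptg000009l_1797) fell by 0.51 in Lost Hills (adjusted p = 0.0022), measured 0.13 in Golden Hills without passing (adjusted p = 0.36), and differed by -0.64 (adjusted p = 0.033). These 3 genes were chosen after seeing their values. Of 89 tested ethylene genes 8 (8.99%) had a called difference, against 3.29% of all genes, and all 8 were negative, against 2.05%. Under TPM, library totals and quantile normalization 6, 6 and 7 were called, with 0 positive, while the sign balance of all genes turned under TPM and library totals. Array weights gave 1 positive and 13 negative ethylene genes, and leaving out replicate 3 of the 133 day Golden Hills group gave 1 and 6. Other lists held called differences too. Among 91 tested pectin genes 1 was positive and 8 were negative, and among 66 tested auxin genes 6 were positive and 2 negative.

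**Figure D5:**
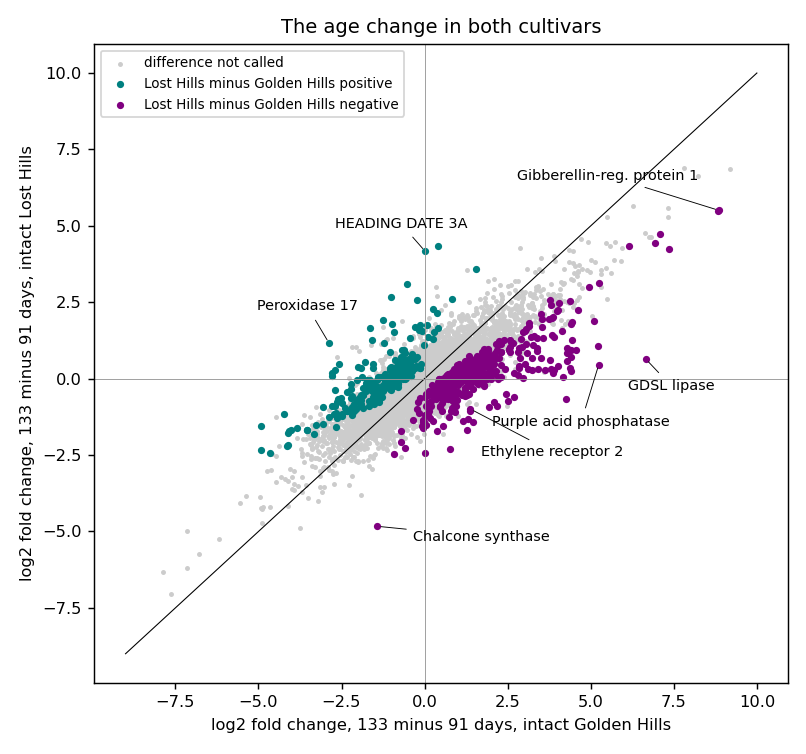
Each point is a tested gene, with its log2 fold change from 91 to 133 days in intact Golden Hills on the x axis and in intact Lost Hills on the y axis, and the line marks equal change. Teal and purple points are the 244 and 405 genes with a called positive or negative difference between the cultivars.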

How the data were processed

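RNA of whole hulls was sequenced in 20 libraries, and 7 of them form the comparison described above. The authors deposited FPKM values per gene, already scaled per library. The submitters' processing notes name HISAT2 2.0.5, StringTie 1.3.3b and featureCounts 1.5.0-p3 without their roles, and the genome build is not given in the sources used here. Multiplied by gene length, 100% of the deposited values became whole multiples of a unit fixed for each library (tolerance 0.01), which recovered the reads. Of 39783 genes, 24977 have a protein name and 11880 had no read.

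Genes reaching 1 FPKM in 3 or more libraries entered limma 3.58.1 (R 4.3.3) on log2(FPKM + 1), in one two-sided fit of all 20 libraries in 6 groups with a trend, and p-values were adjusted by Benjamini-Hochberg with a threshold of 0.05. The steps were tested on simulated data with the same spread for all genes. A first criterion, on the recovery of smaller changes, was not met for lack of power. The test was then judged on larger changes, false calls and the size of the estimates. Genes named in the text passed the test, averaged 5 FPKM or more at the age where they were higher, had no overlapping libraries, and were taken as the largest changes overall and per list, the most abundant called member per list, the largest differences between cultivars, or the most abundant genes. Others are marked as chosen after seeing their values. The most abundant genes and those of the cultivar difference did not need to pass the age test. Members and gene lists were chosen with earlier results of these data known. Coordinates are contig positions of the deposited gene models. Reads carried no molecular identifiers, so floors cover counting error only.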

Additional observations from a re-analysis of the deposited data

Results flagged for a closer look

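In the 91 day Lost Hills group of 4 libraries, 11 of 100 genes examined had a library far from the others, and chance alone flags about 1 in 20 groups. Replicate 2 was high for Desiccation-related protein PCC13-62 at 0.779 FPKM (others 0.131 to 0.192), for WRI1 at 0.0564 FPKM (others 0) and for Glutathione S-transferase F11 at 0.132 FPKM (others 0). WRI1 and Glutathione S-transferase F11 had only 2 reads each over this group, below the floor of 3 reads used above. Replicate 3 was high for GDSL esterase/lipase 1 (ptg000021l_381) at 177 FPKM (98 to 104) and for the soluble invertase at 0.773 FPKM (0.147 to 0.207). Replicate 1 was high for AGL11 at 0.875 FPKM (0 to 0.0513) and for an unnamed gene (ptg000024l_923) at 65.5 FPKM (41.5 to 44.2), and low for 40S ribosomal protein S4-1 at 22.5 FPKM (27.6 to 28). Replicate 4 was low for a pectinesterase/pectinesterase inhibitor gene at 42.7 FPKM (71.5 to 78.7) and for Subtilisin-like protease SBT3 at 9.89 FPKM (20.7 to 21.1), and high for Glycine-rich RNA-binding protein 7 at 7002 FPKM (4820 to 4898).

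The age change differed between the cultivars for 14 of the genes named by rule (interaction, limma). Lost Hills minus Golden Hills was positive for Protein HEADING DATE 3A at 4.15, Peroxidase 17 at 4.04, an unnamed gene (ptg000001l_2688) at 3.94, Terpene synthase 10 at 2.46, AUX28 at 1.94, an (R)-limonene synthase 1 gene (ptg000017l_921) at 1.62 and psbY at 1.35. It was negative for a GDSL lipase at -6.02, an unnamed gene (ptg000005l_158) at -4.95, Purple acid phosphatase 22 at -4.78, Gibberellin-regulated protein 1 at -3.35, Desiccation-related protein PCC13-62 at -3.33, a 22.0 kDa class IV heat shock protein at -2.51 and Non-specific lipid transfer protein GPI-anchored 5 at -1.57.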

How the results depend on the processing

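The 6249 genes called between the ages became 9435 with array weights, 1952 with a log2 fold change of at least 1 and 4455 to 6021 with each Lost Hills library left out, and lay between 4700 and 6352 under the other settings. The 649 genes with a difference between cultivars became 2024 with array weights, 411 without replicate 2 of both 91 day groups and 375 to 685 with each library left out; the cause was not tested. With the replicate number as a block 3827 genes were called between the ages and 412 between the cultivars. The labels do not say whether equal numbers mark a shared tree or block. Deviations of same-numbered libraries correlated at -0.0272, -0.00725 and 0.0667, within the -0.0999 to 0.0713 of differently numbered pairs. Such small correlations cannot settle whether the numbers pair the samples. Of 93 named genes called between the ages 68 kept the call in every setting that gave them a value (20, or 19 for 4 genes left out by 1 filter) and 0 reversed; 25 lost it in at least 1, 13 of them outside the fold threshold and 6 under the block. At the median SE of 0.169 on the log2 scale, changes of single genes close to that size could be missed. The median absolute log2 fold change of the called genes was 0.72.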

Other observations

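The lists in this paragraph were chosen after seeing their values, and of all genes tested 31.7% were called, 16.0% higher and 15.7% lower. Fatty acid synthesis genes rose more often than they fell, with 17 higher and 4 lower of 47 tested and a median log2 fold change of 0.28. Pyruvate dehydrogenase E1 component subunit alpha-3 (ptg000010l_76), which feeds carbon to plastid fatty acid synthesis, went from 5.12 ± 0.387 FPKM (SD, n = 4) to 57.2 ± 42.5 FPKM (SD, n = 3), with a log2 fold change of 2.87 (SE 0.46, adjusted p = 0.00018). A Palmitoyl-acyl carrier protein thioesterase gene (ptg000024l_1644), which releases fatty acids from their carrier, rose by 3.01 (adjusted p = 6.8e-05), and another (ptg000021l_832) fell by 4.26 (adjusted p = 1.9e-06). Plastid ribosomal protein genes rose in 23 of 45 tested and fell in 1, with 11 to 15 rising without replicate 2 or 3 of the 133 day group or replicate 2 of the 91 day group. Respiratory chain and ATP synthase genes rose in 23 of 59 with 0 lower, and 13 rose without replicate 2 or without replicate 3 of the 133 day group. Proteasome genes rose in 21 of 45 with 0 lower, and 11, 12 and 13 rose without replicate 2 or 3 of the 133 day group or replicate 2 of the 91 day group. Receptor-like kinase genes fell in 106 of 482 and rose in 49, which is 32.2% called, with 69 falling without replicate 2 of the 133 day group.

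Some changes clustered along the contigs. A run of 4 neighbouring tested genes of cytochrome P450 93B type on contig ptg000001l (58807733 to 59033398) rose by 1.98 to 3.58 on the log2 scale, and 4 Heat shock cognate 70 kDa protein genes on contig ptg000009l (3033801 to 3093621) fell by 1.09 to 2.55. Copies in such runs are alike in name and may share reads.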
